A study of Mus musculus with 16 samples.

Results

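Common lymphoid progenitors are the bone marrow cells from which B, T and natural killer cells and part of the dendritic cells descend. They express the receptor tyrosine kinase *Flt3* and, as they commit, the interleukin 7 receptor *Il7r*, and they switch on *Dntt*, the terminal transferase that adds bases at the joints of rearranging antigen receptor genes, and *Satb1*, a chromatin organizer that promotes lymphoid over myeloid fate. IL1β is an inflammatory cytokine that signals through *Il1r1* to NF-κB, a family of transcription factors whose targets include its own inhibitors, chemokines and survival genes, and chronic IL1β is known for driving blood formation towards myeloid cells. *Dntt*+ lymphoid progenitors were picked from single-cell RNA profiles of lineage-depleted bone marrow by their own UMIs (unique molecular identifiers, the count of distinct RNA molecules per gene and cell). A cell was a member if it held at least 1 UMI of *Dntt* and at least 1 of *Flt3* or *Il7r*, at most 1 of *Siglech*, fewer than 5 of *Mpo* and none of *Cd3e*. This gave 1358 members among 94917 cells.

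The cells came from 16 C57BL/6 mice, 4 in each of 4 groups, which the sample labels put at 6 to 12 weeks of age, a range that the study's methods give slightly narrower. WT mice were Tet2fl/fl, and *Tet2*-KO mice were Vav-Cre-Tet2-/-, in which Cre is active in blood cells from early in development. The control mice carried no Cre, so that an effect of the transgene and the loss of *Tet2* cannot be told apart. Mice received recombinant IL1β by intraperitoneal injection at 500 ng per mouse and day for 5 weeks, or vehicle. Cells of 2 mice of the same group were marked with hashtag antibodies and sequenced as 1 library, giving 8 libraries that each held 1 group, so that library and group cannot be told apart within a pair.

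The hashtags assigned 1034 members to a mouse, while 264 had no hashtag call and 60 carried both hashtags and were left out as doublets. The assigned members numbered 435 in WT vehicle, 113 in WT IL1β, 403 in *Tet2*-KO vehicle and 83 in *Tet2*-KO IL1β mice, and 10 to 187 in a single mouse. Their UMIs added up to between 59973 and 893891 per mouse. The median member held 2668 to 7712 UMIs, depending on the mouse. Across the 8 libraries 1061 barcodes occurred more than once, 33 member barcodes among them, and none of these was a member in more than 1 library. The 3′ counts of *Tet2*, 39.5 to 56.9 CPM (counts per 1000000 UMIs of the summed cells) in WT vehicle and 45.1 to 81.9 CPM in *Tet2*-KO vehicle members, do not show whether the gene was deleted and check nothing.

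Each step of the rule left fewer cells. Of 2738 cells with a *Dntt* UMI, 1697 also held *Flt3* or *Il7r*, and the limit on *Siglech*, a plasmacytoid dendritic cell lectin, took away 63. The limit on *Mpo*, the myeloperoxidase of granulocyte progenitors, took away 272, and that on *Cd3e*, a T cell receptor subunit, took away 4. The median member held 4 UMIs of *Dntt* and the highest 40, and 304 members (22.4%) held exactly 1. At the other limits, 52 members held 4 UMIs of *Mpo* while 38 cells with 5 fell outside, and 64 members held 1 UMI of *Siglech* while 22 cells with 2 fell outside. A further 4641 cells met every condition except *Dntt*. The values that chose the members describe them, and no test of them is read here.

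*Dntt* UMIs were also met in cells that should lack the gene, which sets a background. Free RNA and mixed droplets were not told apart. Such UMIs were found in 0.817% of granulocyte progenitors (median 7995 UMIs per cell) and 1.03% of erythroid progenitors (median 10495 UMIs), against 15.9% of *Flt3*+ cells (median 5088 UMIs). The full rule was met by 0.254% of erythroid progenitors and 0.179% of basophil lineage cells. Such cells made up 65 of the members (4.79%), which held erythroid or basophil genes besides the rule genes.

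By their genes the members formed a range from early to B-committed cells. *Flt3* was seen in 1170 members (86.2%), *Satb1* in 73.9% and *Il7r* in 36.2%, and 867 members (63.8%) were *Flt3*+ with no *Il7r* UMI. The name of common lymphoid progenitor, which asks for *Il7r*, was therefore met by the markers of the smaller group alone, and all members are called *Dntt*+ lymphoid progenitors here. Members with *Il7r* held 277 CPM of *Ebf1*, the factor that commits cells to the B lineage, against 34.2 CPM in members without. They also held more *Ly6d*, a surface marker of B-biased lymphoid progenitors (500 against 73.3 CPM), more *Rag1*, a subunit of the recombinase that cuts antigen receptor genes (72.9 against 16.9 CPM), and more *Cd79a*, the signalling chain of the B cell receptor (85.8 against 12.5 CPM). Members without *Il7r* held more of the stem and progenitor genes *Cd34* (380 against 222 CPM), *Kit* (130 against 59.9 CPM) and *Hlf* (108 against 23 CPM). A cell at 1 UMI of *Dntt* resembled these, with 142 CPM of *Hlf* against 58.0 CPM in members with 2 or more.

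The 20 genes that stood highest in the members against all other cells were *Dntt*, *Flt3*, *Cox6a2*, *Ebf1*, *Satb1*, *Il7r*, *Arpp21*, *Cd69*, *Cmah*, *Gimap6*, *Myl10*, *Ly6d*, *Sox4*, *Dusp2*, *Gpr171*, *Notch1*, *Maml3*, *Ccl4*, *Wfdc17* and *Il12a*. They were ranked by the mean over libraries of the log2 ratio of CPM with 10 added. Among them *Cd69* and *Ccl4* ranged from 245 to 2756 and 29.5 to 689 CPM over libraries. Both were higher with IL1β, as given below. *Satb1* averaged 390 CPM in the members and 36.3 CPM in all other cells, and *Notch1*, the receptor that directs cells to the T lineage, 186 and 26.4 CPM. Against the most alike progenitors, the 1492 cells with *Flt3* and *Cd34* but neither *Dntt* nor *Il7r*, the members stood apart in *Ebf1* (107 against 1.63 CPM), *Ly6d* (164 against 8.73 CPM), *Cmah* (108 against 7.84 CPM) and *Cox6a2* (147 against 18.3 CPM). The contrast was smaller for *Satb1* (390 against 172 CPM) and *Notch1* (186 against 66.1 CPM). *Sox4* was at 1050 against 883 CPM, and *Flt3*, by which both kinds of cell were chosen, at 383 against 305 CPM. The T lineage factors *Bcl11b*, *Tcf7* and *Gata3* stayed at 5.61, 5.02 and 6.88 CPM in the members.

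**Figure D1:**
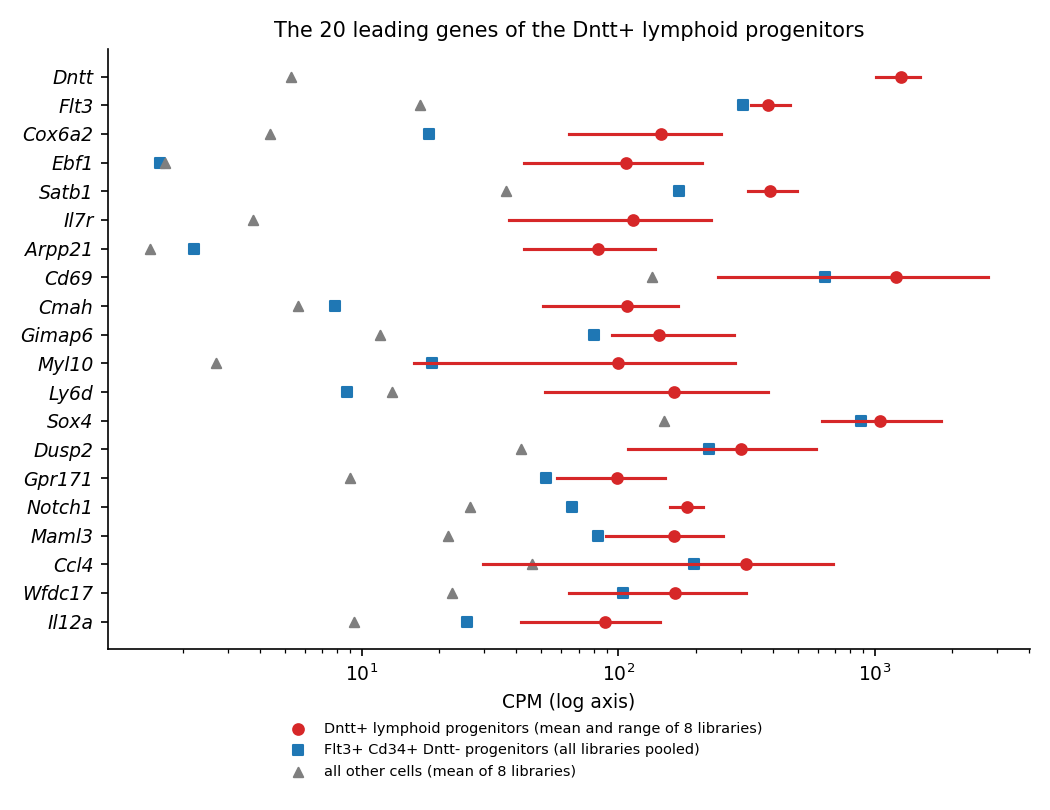
The 20 leading genes of the *Dntt*+ lymphoid progenitors in CPM on a log axis, with red dots and lines for the mean and range of 8 libraries, blue squares for *Flt3*+ *Cd34*+ *Dntt*- progenitors pooled over libraries and grey triangles for the mean of all other cells. *Ebf1*, *Arpp21*, *Cmah* and *Ly6d* lie far to the right of the squares (*Ebf1* 107 against 1.63 CPM), while *Sox4* and *Flt3* lie close to them, and *Dntt* and *Il7r* have no square because these cells were chosen without them.

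The first question was whether IL1β changed the share of these cells. *Dntt*+ lymphoid progenitors made up 2.40%, 2.29%, 5.73% and 3.45% of the assigned cells of the 4 WT vehicle mice (3.47% ± 1.60, SD, n = 4). With IL1β the 4 WT mice held 0.482%, 0.402%, 1.04% and 1.20% (0.781% ± 0.398, SD, n = 4). In *Tet2*-KO mice the shares were 2.44%, 1.19%, 3.16% and 2.42% with vehicle (2.30% ± 0.816, SD, n = 4) and 0.771%, 0.780%, 0.391% and 0.441% with IL1β (0.596% ± 0.209, SD, n = 4). No IL1β mouse reached the lowest vehicle mouse of its genotype, though WT IL1β mouse 4 (1.20%) came to the level of *Tet2*-KO vehicle mouse 2 (1.19%). The interval of a single mouse was wide, as in WT IL1β mouse 2 with 10 members, where the exact 95% binomial interval ran from 0.193% to 0.739%, covering counting error only.

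The share was 4.53-fold lower with IL1β in WT mice (log2 -2.18) and 3.76-fold lower in *Tet2*-KO mice (log2 -1.91). Each difference gave a two-sided exact permutation p of 0.0286, the smallest that 4 against 4 mice allow, and 0.0714 after adjustment over the 5 planned comparisons, which does not pass 0.05. Over both genotypes, with labels permuted within each genotype, the share was 4.13-fold lower and the exact p was 0.000408, the smallest this design allows, a test added after the data were seen. *Tet2*-KO mice did not differ detectably from WT mice with vehicle (log2 -0.57, exact p = 0.286) or with IL1β (log2 -0.30, exact p = 0.543). The fall also did not differ detectably between the genotypes (log2 0.27, exact p = 0.676).

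Membership asks for a *Dntt* UMI. Fewer cells and less *Dntt* RNA per cell can therefore not be told apart by the share. A share of cells also falls when other cells become more abundant. In these libraries fewer members and a larger rest cannot be told apart by the share alone. The members were therefore also counted against the *Flt3*+ *Cd34*+ *Dntt*- progenitors of the same mouse. Per 100 of those cells there were 139 to 203 members in WT vehicle and 107 to 164 in *Tet2*-KO vehicle mice, against 38.3 to 131 in WT IL1β and 25 to 73.3 in *Tet2*-KO IL1β mice. The ratio was 2.56-fold lower with IL1β in WT and 3.66-fold lower in *Tet2*-KO mice (exact p = 0.0286 for each, the smallest possible), and 3.06-fold lower over both genotypes (exact p = 0.000408). The share of the *Flt3*+ *Cd34*+ *Dntt*- progenitors themselves gave an exact p of 0.114 in WT (log2 -0.83) and 0.943 in *Tet2*-KO mice (log2 -0.04). This ratio was added after the data were seen. Both kinds of cell were chosen by the rule genes, so a *Flt3*+ *Cd34*+ cell without *Dntt* and *Il7r* UMIs leaves the members and enters the comparison cells. The ratio therefore draws on the values of the rule. It cannot decide between fewer members, a larger rest and less *Dntt* RNA per cell.

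**Figure D2:**
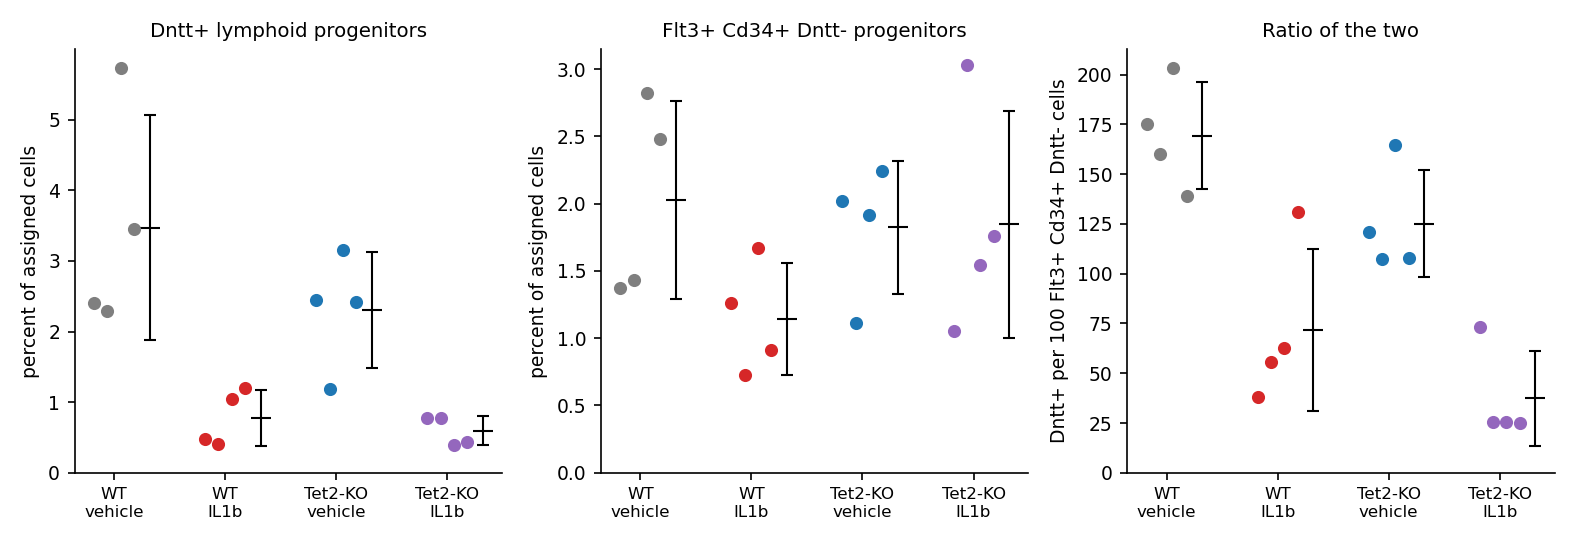
Share of *Dntt*+ lymphoid progenitors among the assigned cells (left, percent), share of *Flt3*+ *Cd34*+ *Dntt*- progenitors (middle, percent) and members per 100 of the latter (right), with 1 dot per mouse and a bar at the mean ± SD of 4 mice. Within each genotype all IL1β mice lie below all vehicle mice in the left and right panels, while the middle panel overlaps, with *Tet2*-KO means of 1.82% with vehicle and 1.85% with IL1β.

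The share was also lower with IL1β under other limits. Among *Flt3*+ cells, with no limit on *Mpo* or *Siglech*, a *Dntt* UMI was seen in 23.1% with vehicle and 8.72% with IL1β. With all limits the members were 19.35% and 5.89% of *Flt3*+ cells, a larger fall. The limits kept 899 of 1072 *Flt3*+ cells with *Dntt* with vehicle and 271 of 401 with IL1β. They thus took away a larger part with IL1β. The median *Flt3*+ cell was deeper with IL1β (5902 UMIs) than with vehicle (4460 UMIs). Each cell was also thinned to 3000 UMIs, which left out 2796 to 4066 shallower cells per group, and the shares were then 2.28% and 0.644% in WT and 1.32% and 0.603% in *Tet2*-KO mice. Thinning to 1500 UMIs, a depth added later since many members hold fewer than 3000, gave 1.90% and 0.403% in WT and 1.43% and 0.371% in *Tet2*-KO mice. In erythroid progenitors, where the rule reads background, it was met by 0.351% of cells with vehicle and 0.119% with IL1β. In basophil lineage cells it was met by 0.398% and 0.0898%. A *Dntt* UMI was seen in 1.43% and 0.432% of granulocyte progenitors. Over all cells the rule was met by 2.31% and 0.603%. The background thus moved in the same direction as the members and to a like extent, at a lower level, and its part in the fall was not tested.

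Members with *Il7r* became scarcer too. They made up 1.28% of assigned cells in WT vehicle and 1.05% in *Tet2*-KO vehicle mice, against 0.163% and 0.102% with IL1β. In the per-mouse values they were 32% to 43.8% of members in WT vehicle, 40.4% to 52.3% in *Tet2*-KO vehicle, 0% to 35.3% in WT IL1β and 5.88% to 25.7% in *Tet2*-KO IL1β mice. The 2 treatments thus overlapped in WT and were apart in *Tet2*-KO mice. Because *Il7r* is a rule gene these shares are a description without a test, and the comparisons of IL1β with vehicle below set, on average, a population with more *Il7r*+ cells (vehicle) against one with fewer (IL1β), although WT IL1β mice 1 and 4 lay within the range of WT vehicle mice. Members at exactly 1 UMI of *Dntt* were 18.2% to 31.25% of members in WT vehicle and 9.68% to 60% in WT IL1β mice. In *Tet2*-KO mice they were 13.3% to 21.1% with vehicle and 25% to 45.7% with IL1β, which do not overlap. They held less *Rag1* (5.52 against 46.1 CPM), *Ly6d* (76.6 against 268 CPM) and *Cox6a2* (60.7 against 202 CPM) than members with 2 or more. The median member also held 3.74% to 4.66% mitochondrial UMIs in vehicle and 4.59% to 5.48% in IL1β mice. Members without an *Il7r* UMI were therefore also compared alone, and the part of the mitochondrial share was not tested.

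Members with signs of antigen receptor rearrangement and B commitment had lower mean shares with IL1β, which did not pass a test. Members with a UMI of *Rag1* or *Rag2*, the recombinase pair, were 14.0%, 50.0%, 20.3% and 20.5% in WT vehicle and 19.4%, 10.0%, 7.27% and 11.8% in WT IL1β mice. In *Tet2*-KO mice they were 14.6%, 6.67%, 19.9% and 22.9% with vehicle and 0%, 11.4%, 0% and 0% with IL1β, where 0 of 11, 0 of 17 and 0 of 20 members in the 3 mice at 0% allow shares of up to 27.3%, 17.6% and 15%. The groups overlapped in both genotypes, and each test gave an exact p of 0.0571 (0.114 adjusted over 4 comparisons). Thinning members to 3000 UMIs left out the shallower ones. It kept 296 of 435 members in WT vehicle and 82 of 113 in WT IL1β mice. In *Tet2*-KO mice it kept 192 of 403 with vehicle and 73 of 83 with IL1β. The means with vehicle and IL1β were then 21.7% and 8.56% in WT (exact p = 0.171) and 7.79% and 2.42% in *Tet2*-KO mice (exact p = 0.257). Members with a B lineage UMI averaged 46.8% and 35.9% in WT and 52.7% and 40.8% in *Tet2*-KO mice (exact p = 0.0857 and 0.257). After thinning they averaged 37.5% and 22.7% in WT and 42.7% and 28.2% in *Tet2*-KO mice (exact p = 0.0857 and 0.0571).

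A further share was set by a limit on cell cycle genes, which cuts a continuous range and is not a call of cycling cells. Members in which genes of S phase or of G2 and M phase took over 1% of UMIs averaged 73.2% ± 17.3 in WT IL1β and 44.3% ± 2.13 in *Tet2*-KO IL1β mice (SD, n = 4 each). All 4 WT mice (58.2% to 94.1%) lay above all 4 *Tet2*-KO mice (41.2% to 45.7%), with an exact p of 0.0286 and an adjusted p of 0.114. After thinning to 3000 UMIs the means were 80.8% and 48.2% with the same p. The vehicle groups, at 59.0% and 41.9%, overlapped. Thinning moved these to 75.1% and 67.6%, so that the difference of IL1β from vehicle in *Tet2*-KO mice turned from 2.41 to -19.4 percentage points (exact p = 0.914 and 0.114). It also left out members below 3000 UMIs and kept 192 of 403 in *Tet2*-KO vehicle and 73 of 83 in *Tet2*-KO IL1β mice. The part of this loss was not tested.

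Gene expression was compared on the UMIs of the members summed per mouse, with all 16 mice in 1 fit of edgeR's quasi-likelihood test, over the 3565 genes that passed the filter on low counts. Of these, 72 genes were higher with IL1β in WT mice (2.02% of those tested) and 99 lower (2.78%), at a Benjamini-Hochberg adjusted p under 0.05. In *Tet2*-KO mice 111 were higher (3.11%) and 79 lower (2.22%). The WT and *Tet2*-KO comparisons used different mice, and they shared 48 of the higher genes (66.7% of the WT and 43.2% of the *Tet2*-KO genes) and 29 of the lower genes (29.3% and 36.7%), with 0 genes called in opposite directions. Over both genotypes, a comparison added after the data were seen, 242 genes were higher (6.79%) and 293 lower (8.22%). The rule gene *Il7r* stayed in the fit and is 1 of the lower genes in *Tet2*-KO mice and over both genotypes, from which nothing is read. The WT count was 59 without WT IL1β mouse 3 and 109 to 113 without WT vehicle mouse 1, 3 or 4. The *Tet2*-KO count was 50 and 57 without vehicle mouse 3 or 4 and 68 to 78 without IL1β mouse 1, 2 or 3, and the count over both was 316 without WT IL1β mouse 3.

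Few genes were called between the genotypes. *Tet2*-KO and WT members with vehicle differed in 0 genes (0%), with 151 at an unadjusted p under 0.05 and 0 by DESeq2. With IL1β they differed in 1 gene (0.0281%), *Rrm1*, which encodes the large subunit of ribonucleotide reductase and was at 316, 491, 373 and 371 CPM in WT and 166, 141, 79.7 and 178 CPM in *Tet2*-KO mice. The groups did not overlap (log2 -1.40 ± 0.25 SE, edgeR adjusted p = 0.0384), but the call was lost when WT IL1β mouse 2, 3 or 4 or any *Tet2*-KO IL1β mouse was left out (edgeR adjusted p = 0.0573 to 0.248), and DESeq2 called 10 genes. In this comparison 311 of the 3565 genes had an unadjusted p under 0.05. The effect of IL1β differed between the genotypes in 0 genes by edgeR (0%; 114 at an unadjusted p under 0.05; 0 by DESeq2). Without the filter on low counts edgeR called 48 genes between the genotypes with vehicle, 30 with IL1β and 8 for the difference in the effect of IL1β.

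Most tested genes of NF-κB signalling were higher with IL1β, though not in every mouse. Of 20 listed NF-κB targets 13 were tested, and 11 were higher with IL1β over both genotypes, against 6.79% of all tested genes. In WT mice 8 were higher (2.02% of all tested genes) and in *Tet2*-KO mice 10 (3.11% of all). The filter keeps a gene that is high enough in IL1β mice alone, as *Tnfaip3* and *Tnf* were. Such a target was tested only because it was high with IL1β, so the count is a description. Their median log2 fold change was 2.01, against 0.00 over all tested genes. They were *Nfkbia*, *Nfkbiz*, *Nfkb1*, *Rel*, *Tnfaip3*, *Birc3*, *Icam1*, *Ccl3*, *Ccl4*, *Tnf* and *Cd69*. CPM of single mice below are scaled by the factors of the fit and are given in the order of mice 1 to 4.

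*Tnfaip3* (chr10:19000910-19015657 in GRCm38) encodes A20, an enzyme that ends NF-κB signalling. It was at 2.82, 0, 6.43 and 5.39 CPM in WT vehicle and 41.2, 454, 454 and 533 CPM in WT IL1β mice, and at 37.8, 41.0, 7.97 and 6.45 CPM in *Tet2*-KO vehicle and 527, 277, 686 and 418 CPM in *Tet2*-KO IL1β mice. Every IL1β mouse lay above every vehicle mouse, WT IL1β mouse 1 only just above the highest of them. The log2 difference was 5.27 ± 0.43 (SE, edgeR adjusted p = 3.95e-08), 5.97 in WT and 4.56 in *Tet2*-KO mice.

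*Nfkbia* (chr12:55489410-55492647) encodes IκBα, the inhibitor that holds NF-κB in the cytoplasm. It was at 90.2, 133, 54.0 and 57.4 CPM in WT vehicle and 61.8, 718, 1357 and 1065 CPM in WT IL1β mice, and at 48.6, 68.3, 59.8 and 58.0 CPM in *Tet2*-KO vehicle and 1114, 819, 1818 and 1534 CPM in *Tet2*-KO IL1β mice. All IL1β mice except WT mouse 1 stood above the vehicle mice (log2 4.01 ± 0.36 SE, edgeR adjusted p = 1.76e-07). *Nfkbiz*, a nuclear co-factor of NF-κB, was at 19.0 to 113 CPM in the 8 vehicle mice and 401 to 1674 CPM in 7 IL1β mice, with WT mouse 1 at 103 CPM (log2 3.74 ± 0.35 SE, edgeR adjusted p = 2.39e-07).

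*Tnf*, the cytokine, was at 8.45, 19.0, 3.86 and 0 CPM in WT vehicle and 6.86, 56.7, 392 and 324 CPM in WT IL1β mice. *Tet2*-KO mice had 10.8, 41.0, 7.97 and 6.45 CPM with vehicle and 136, 94.3, 335 and 342 CPM with IL1β. WT IL1β mouse 1 again lay among the vehicle mice (log2 4.90 ± 0.57 SE, edgeR adjusted p = 4.92e-06). *Cxcl2*, a neutrophil chemokine, had no UMI in WT vehicle members and was at 0, 302, 124 and 92.6 CPM in WT IL1β mice. With UMIs summed over mice and a limit of 3 counts set for vehicle, it was at least 61.8-fold higher in WT IL1β members. WT IL1β mouse 1 held none of it. In *Tet2*-KO members it had 1 UMI with vehicle and 61 with IL1β, a ratio of 207 with a 95% counting interval of 35.7 to 8295. The bound takes the IL1β count as exact. Both the bound and the interval leave out the spread between mice.

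WT IL1β mouse 1, with 31 members, stood apart in this group of genes while its share of members was as low as in the others. In its *Flt3*+ *Cd34*+ *Dntt*- progenitors the same was seen, with *Nfkbia* at 78.7 CPM against 666 to 804 CPM in the other 3 WT IL1β mice and 18 to 60.1 CPM in WT vehicle mice. Without this mouse the WT comparison again called 171 genes, and the log2 difference became 6.41 for *Tnfaip3* and 3.93 for *Nfkbia*. The log2 difference in the share of members in WT mice was then -2.0 (exact p = 0.0571, the smallest possible with 3 mice against 4).

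**Figure D3:**
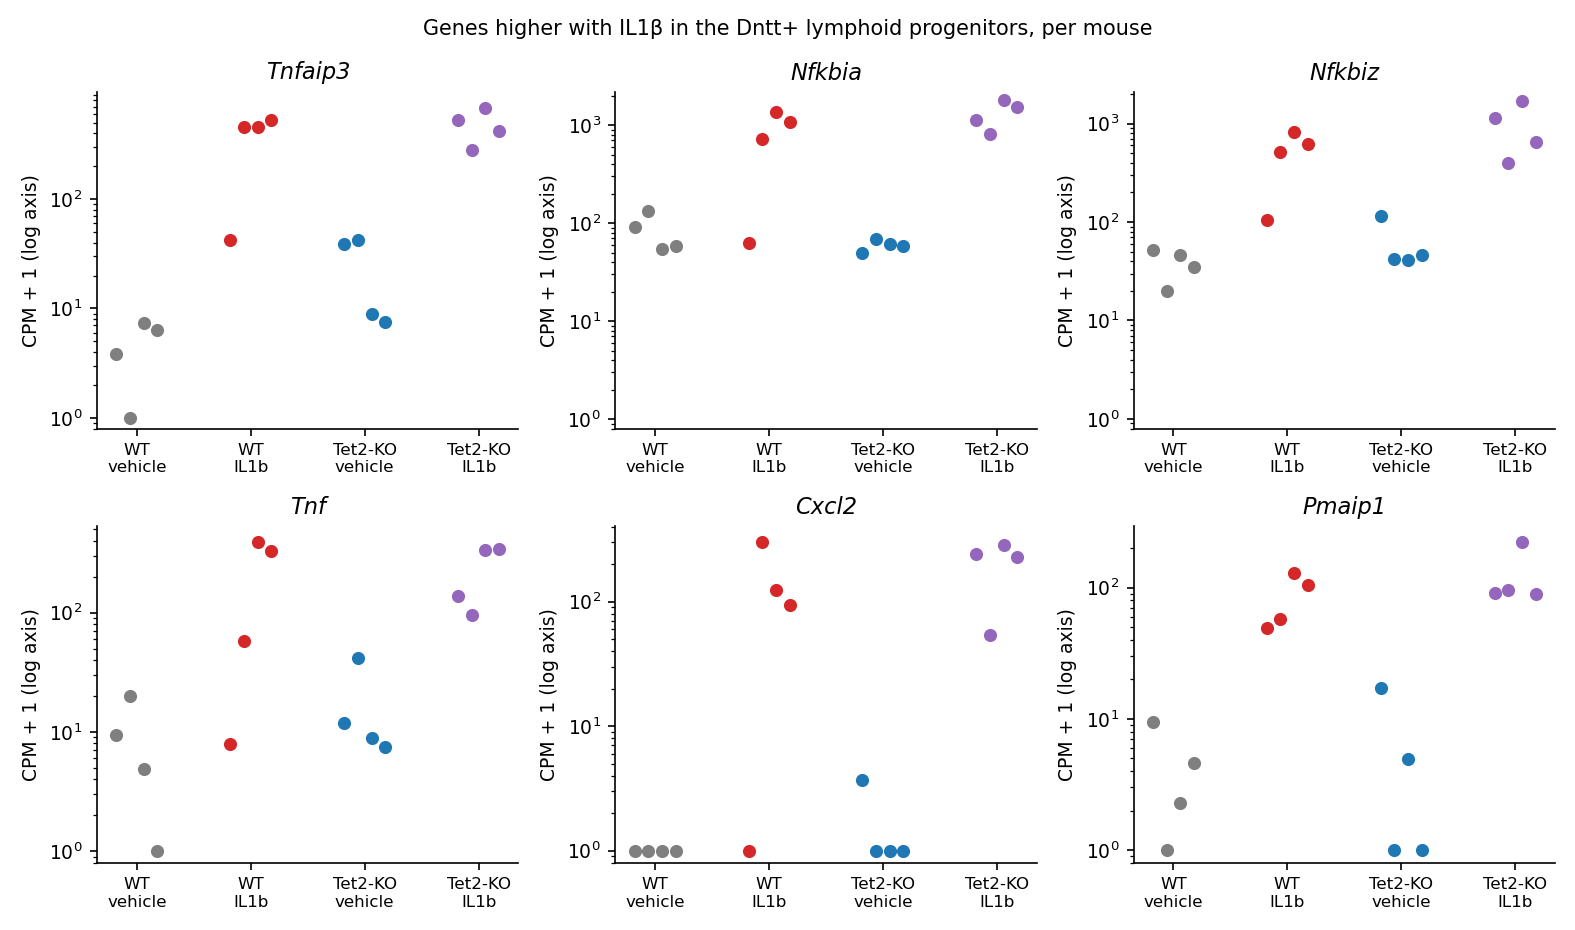
CPM + 1 (log axis) of *Tnfaip3*, *Nfkbia*, *Nfkbiz*, *Tnf*, *Cxcl2* and *Pmaip1* in the summed *Dntt*+ lymphoid progenitors of each mouse, with 1 dot per mouse from mouse 1 on the left to mouse 4. IL1β mice lie above vehicle mice, apart from WT IL1β mouse 1, the leftmost red dot, which is near the vehicle level for *Nfkbia* (61.8 CPM), *Tnf* (6.86 CPM) and *Cxcl2* (0 CPM).

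*Nfkbid*, *Tnip3* and *Gbp5* had large rises in *Tet2*-KO mice, and in WT IL1β mice they were at 20.6 to 132, 6.86 to 435 and 6.86 to 296 CPM against 0 to 25.4, 0 to 8.45 and 0 to 8.45 CPM with vehicle. *Nfkbid*, another nuclear IκB protein, was at 0 to 27.3 CPM in *Tet2*-KO vehicle and 76.1 to 446 CPM in *Tet2*-KO IL1β mice (log2 4.61 ± 0.77 SE, edgeR adjusted p = 0.00122). *Tnip3*, which binds A20, was at 3.99 to 18.9 and 70.7 to 437 CPM (log2 4.57 ± 0.76). *Gbp5*, a GTPase that promotes inflammasome assembly, was at 0 to 5.98 and 47.2 to 510 CPM (log2 5.10 ± 0.89). These *Tet2*-KO groups did not overlap, but the calls for *Gbp5* and *Tnip3* were lost in mice with 20 or more members (edgeR adjusted p = 0.125 and 0.0694). *Nfkbid*, *Tnip3* and *Gbp5* were low with vehicle and passed the filter through IL1β mice. They could hardly be found lower with IL1β, so their calls are a description. *Rel*, an NF-κB subunit, was at 27.3 to 83.8 CPM in vehicle and 89.2 to 351 CPM in IL1β mice of both genotypes, with no overlap (log2 1.39 ± 0.24 SE, edgeR adjusted p = 0.000368).

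Matches to the NF-κB consensus were searched on both strands of the promoters in RefSeq's table for GRCm38.p6, from 250 bases before to 50 after each start. They were found in 1480 of 32851 promoters (4.51%). Counted by gene, with a match in any of its promoters, they were found in 1388 of 27025 genes (5.14%). Among tested genes 176 of the 2805 with a promoter in the table held one (6.27%), against 30 of 189 higher genes (15.9%), 10 of 218 lower genes (4.59%) and 11 of 17 genes with a promoter among the 20 largest rises (64.7%). A match is a description of letters and not a bound site. The search itself makes the matches alike, and nothing is read from their likeness. The following windows show the match in capitals for 6 genes picked from those that rose and held a match. They are 30 bases long and read 5′ to 3′ on the strand of the gene.
Cxcl2: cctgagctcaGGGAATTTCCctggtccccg
Tnfaip3: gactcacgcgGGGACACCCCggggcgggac
Nfkbia: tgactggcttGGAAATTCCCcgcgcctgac
Tnip3: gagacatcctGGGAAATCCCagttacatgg
Nfkbid: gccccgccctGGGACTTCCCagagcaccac
Ltb: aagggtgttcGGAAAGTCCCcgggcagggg
They lie at chr5:90903792-90903821 (plus strand) for *Cxcl2*, chr10:19015516-19015545 (minus) for *Tnfaip3*, chr12:55492657-55492686 (minus) for *Nfkbia*, chr6:65590334-65590363 (plus) for *Tnip3*, chr7:30422170-30422199 (plus) for *Nfkbid* and chr17:35194410-35194439 (plus) for *Ltb*. The matches begin 97, 125, 29, 54, 226 and 87 bases before the starts of the RefSeq table, in the same order. These starts can differ from those of the GENCODE gene coordinates given for *Tnfaip3* and *Nfkbia*, and the *Tnfaip3* window lies inside the GENCODE gene. The promoters of *Cxcl2*, *Tnfaip3* and *Nfkbid* hold 2 matches each and the other 3 promoters 1 each.

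**Figure D4:**
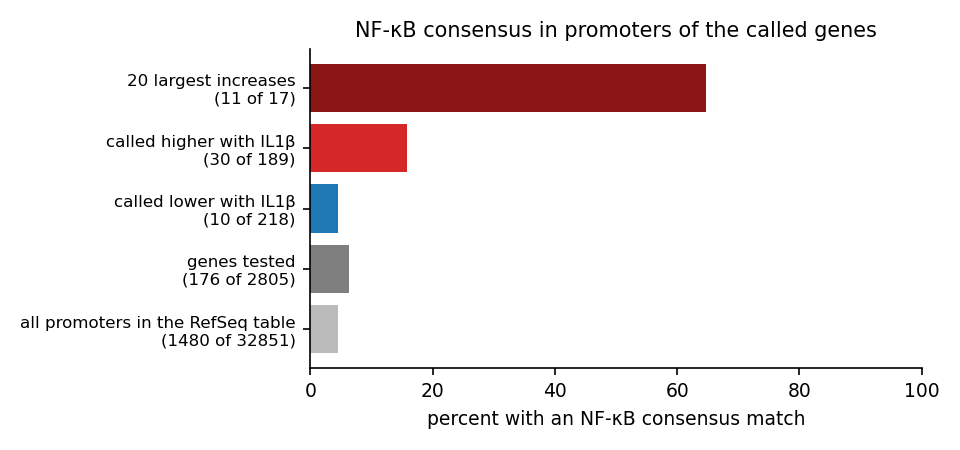
Percent with at least 1 match to the NF-κB consensus, as bars from 0. For all promoters in the table it is a percent of promoters. For all tested genes, the genes lower or higher with IL1β over both genotypes and the largest rises it is a percent of genes. A gene counts if any of its promoters holds a match. The share is 4.59% for lower genes, 15.9% for higher genes and 64.7% for the 17 of the 20 largest rises that have a promoter in the table.

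Genes of cell death and survival moved in both directions. *Pmaip1*, which encodes the pro-apoptotic protein Noxa, was at 8.45, 0, 1.29 and 3.59 CPM in WT vehicle and 48.0, 56.7, 129 and 104 CPM in WT IL1β mice. *Tet2*-KO mice had 16.2, 0, 3.99 and 0 CPM with vehicle and 90.4, 94.3, 223 and 88.8 CPM with IL1β. No IL1β mouse, WT mouse 1 included, overlapped with a vehicle mouse (log2 4.30 ± 0.45 SE, edgeR adjusted p = 8.74e-07). Over the summed members it was 28.4-fold higher in WT (95% counting interval 12.1 to 81.5) and 18.2-fold higher in *Tet2*-KO mice (8.46 to 44.8). These intervals cover counting error only and leave out the spread between mice.

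Of the 12 listed genes of the *Bcl2* family 5 were tested, and 2 rose (against 6.79% of all tested genes) and 2 fell (against 8.22% of all). A gene such as *Pmaip1* passed the filter through IL1β mice alone and could hardly be found lower with IL1β. The count of rises is therefore a description. *Mcl1*, a pro-survival member that Noxa binds, was at 114 to 280 CPM with vehicle and 240 to 622 CPM with IL1β (log2 1.11 ± 0.17 SE, edgeR adjusted p = 8.49e-05). *Bax*, which permeabilizes mitochondria, was at 75.5 to 123 CPM with vehicle and 15.1 to 71.7 CPM with IL1β, with no overlap over all 16 mice (log2 -0.90 ± 0.20, edgeR adjusted p = 0.00397). *Bcl2*, a pro-survival member, was lower as well (log2 -0.51 ± 0.15, edgeR adjusted p = 0.0214), a call that was lost without *Tet2*-KO IL1β mouse 2 or mouse 3 (edgeR adjusted p = 0.0762 and 0.0521). The *Bcl2* call was also lost with the 8 libraries as replicates (edgeR adjusted p = 0.0855). With only members that held at least 2 UMIs of *Dntt*, *Bax* was not called (edgeR adjusted p = 0.141), nor in mice with 20 or more members (log2 -0.69, edgeR adjusted p = 0.0883).

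Of 17 listed genes of the B lineage only 3 passed the filter, and 2 of them fell with IL1β, *Blnk* and *Ly6d*, against 8.22% of all tested genes. *Blnk* passed the filter through vehicle mice alone and could hardly be found higher with IL1β, so this count is a description. *Blnk*, the adaptor that links the pre-B cell receptor to calcium signalling, was at 39.5, 114, 59.1 and 59.2 CPM in WT vehicle and 0, 18.9, 4.78 and 0 CPM in WT IL1β mice. In *Tet2*-KO mice it was at 132, 81.9, 89.7 and 61.3 CPM with vehicle and 0, 35.4, 0 and 50.7 CPM with IL1β. The groups did not overlap within either genotype (log2 -2.74 ± 0.47 SE, edgeR adjusted p = 0.000338). *Ly6d* was at 144, 948, 427 and 258 CPM in WT vehicle and 89.2, 37.8, 100 and 92.6 CPM in WT IL1β mice, which do not overlap, and at 210, 0, 578 and 474 against 0, 47.2, 15.9 and 190 CPM in *Tet2*-KO mice, which do (log2 -2.27 ± 0.49 SE, edgeR adjusted p = 0.00294).

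The third tested gene, *Ebf1*, was at 64.8 to 512 CPM in WT vehicle and 0 to 116 CPM in WT IL1β mice, and at 109 to 211 and 0 to 289 CPM in *Tet2*-KO mice (log2 -0.97 ± 0.47, edgeR adjusted p = 0.171). The summed level of the 16 B lineage genes found in the files was 329 to 2190 CPM in WT vehicle, 83.4 to 398 CPM in WT IL1β, 568 to 1057 CPM in *Tet2*-KO vehicle and 53.8 to 788 CPM in *Tet2*-KO IL1β mice. These genes follow *Il7r* among the members. Among members without an *Il7r* UMI, *Blnk* and *Rag1* were not tested, and *Ly6d* gave log2 -1.17 and was not called (edgeR adjusted p = 0.0875).

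Of 15 listed genes of V(D)J recombination 5 were tested and 3 fell, against 8.22% of all tested genes. *Rag1* passed the filter through vehicle mice alone, so this count too is a description. *Rag1* was at 16.9, 171, 56.6 and 37.7 CPM in WT vehicle and 20.6, 0, 19.1 and 11.6 CPM in WT IL1β mice, and at 70.1, 0, 83.7 and 83.8 against 0, 35.4, 0 and 0 CPM in *Tet2*-KO mice. The treatments overlapped in each genotype (log2 -1.84 ± 0.54, edgeR adjusted p = 0.024), and neither genotype alone passed (edgeR adjusted p = 0.276 and 0.111). The call over both was lost without WT vehicle mouse 3 or WT IL1β mouse 3 (edgeR adjusted p = 0.0522 and 0.0569), with at least 2 UMIs of *Dntt* per member (log2 -1.29, edgeR adjusted p = 0.167) and in mice with 20 or more members (edgeR adjusted p = 0.0629). *Xrcc6*, the Ku70 subunit that binds broken DNA ends, was lower (log2 -1.17 ± 0.27, edgeR adjusted p = 0.00479, but 0.0544 with at least 2 UMIs of *Dntt* per member), and so was *Hmgb1*, a DNA-bending partner of the recombinase (log2 -0.52 ± 0.11, edgeR adjusted p = 0.00323), a call that was lost in members without an *Il7r* UMI (log2 -0.33, edgeR adjusted p = 0.128).

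*Dntt* itself was at 1454 to 1725 CPM in WT vehicle, 775 to 1644 CPM in WT IL1β, 1188 to 1986 CPM in *Tet2*-KO vehicle and 845 to 1491 CPM in *Tet2*-KO IL1β members, and *Flt3* at 227 to 482, 357 to 511, 438 to 464 and 392 to 686 CPM in the same order. Both are rule genes and are given as levels only, as is *Il7r*, at 138 to 208, 0 to 174, 178 to 317 and 15.9 to 106 CPM. The groups overlapped for *Dntt* and *Flt3*, whereas *Il7r* was lower with IL1β in all *Tet2*-KO mice. *Satb1*, which the rule did not use, was at 375 to 455, 313 to 578, 441 to 547 and 303 to 533 CPM (log2 -0.02 ± 0.14, edgeR adjusted p = 0.948 for IL1β over both genotypes). *Ikzf1*, a factor required for lymphoid development, gave log2 0.07 ± 0.13 (edgeR adjusted p = 0.773) and *Notch1* -0.14 ± 0.15 (edgeR adjusted p = 0.588).

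Several transcription factors were higher with IL1β. Of 36 listed lymphoid transcription factors 21 were tested, and *Ikzf2*, *Zeb2*, *Sox4* and *Bcl11a* rose (against 6.79% of all tested genes) while *Mef2c* fell (against 8.22% of all), with a median over the list of 0.13 (0.00 over all tested genes). In mice with 20 or more members the calls for *Zeb2* and *Bcl11a* were lost (log2 0.65 and 0.44, edgeR adjusted p = 0.0552 and 0.164). *Ikzf2*, which encodes Helios, was at 50.7, 19.0, 60.4 and 55.6 CPM in WT vehicle and 151, 132, 162 and 69.5 CPM in WT IL1β mice, and at 62.0, 95.6, 41.9 and 67.7 against 256, 136, 239 and 139 CPM in *Tet2*-KO mice. The groups did not overlap within a genotype (log2 1.46 ± 0.20 SE, edgeR adjusted p = 3.97e-05). *Sox4*, a factor needed for early B cell development, was at 720 to 976 CPM with vehicle and 597 to 2665 CPM with IL1β (log2 0.88 ± 0.16, edgeR adjusted p = 0.000623), with WT IL1β mouse 1 the lowest of all.

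*Kit*, the stem cell factor receptor, was at 76.1, 94.8, 87.4 and 115 CPM in WT vehicle and 213, 113, 229 and 127 CPM in WT IL1β mice. Levels in *Tet2*-KO mice were 105, 123, 81.7 and 129 CPM with vehicle and 361, 248, 319 and 165 CPM with IL1β. Only WT IL1β mouse 2 (113 CPM) fell below its highest vehicle mouse (115 CPM), and the log2 difference was 1.16 ± 0.18 (SE, edgeR adjusted p = 0.000133). Of 22 listed stem and multipotent genes 15 were tested, with *Kit*, *Txnip* and *Angpt1* higher (against 6.79% of all tested genes) and *Hoxa9* lower (against 8.22% of all). The call for *Angpt1* was lost in 9 of 27 alternatives and that for *Txnip* in 3 of 27. *Hoxa9* gave log2 -1.03 ± 0.28 (edgeR adjusted p = 0.0144), a call that was lost in mice with 20 or more members (edgeR adjusted p = 0.0633) and with at least 2 UMIs of *Dntt* per member (edgeR adjusted p = 0.0877). In members without an *Il7r* UMI *Kit* was still higher (log2 0.87, edgeR adjusted p = 0.00464), as was *Ikzf2* (log2 1.17, edgeR adjusted p = 0.000391).

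**Figure D5:**
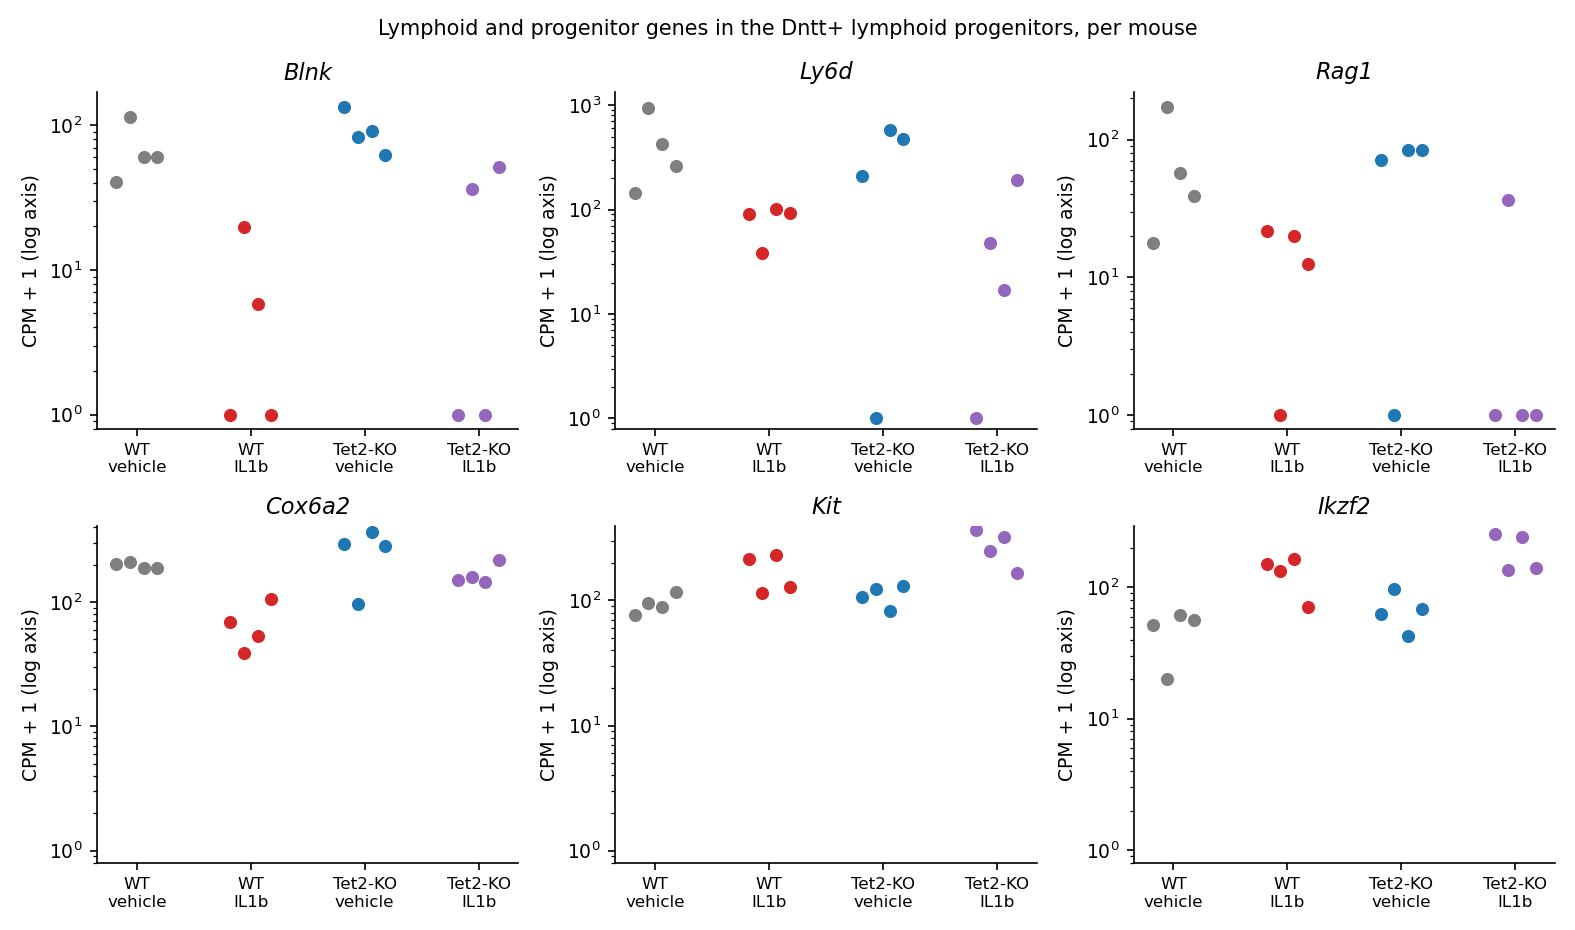
CPM + 1 (log axis) of *Blnk*, *Ly6d*, *Rag1*, *Cox6a2*, *Kit* and *Ikzf2* in the summed *Dntt*+ lymphoid progenitors of each mouse, with 1 dot per mouse. *Blnk* is lower in every IL1β mouse than in every vehicle mouse of its genotype. *Ly6d* overlaps in *Tet2*-KO mice and *Rag1* in both genotypes, and *Kit* and *Ikzf2* are higher with IL1β (*Ikzf2* log2 1.46).

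The members also touch the plasmacytoid dendritic cell lineage. Of 12 listed genes 6 were tested, and *Cox6a2* and *Bst2* fell, with 8.22% of all tested genes lower, though the call for *Bst2* was lost in 20 of 27 alternatives. The summed level of the 12 genes was 1135 to 1488 CPM in WT vehicle and 773 to 1350 CPM in WT IL1β mice. In *Tet2*-KO mice it was 1030 to 1621 CPM with vehicle and 1250 to 1609 CPM with IL1β. The treatments thus overlapped in both genotypes. *Cox6a2*, a cytochrome oxidase subunit made by plasmacytoid dendritic cells and their precursors, was at 203, 209, 188 and 189 CPM in WT vehicle and 68.6, 37.8, 52.6 and 104 CPM in WT IL1β mice, which do not overlap (log2 -1.56 ± 0.30, edgeR adjusted p = 0.00318). The WT call was lost with only members that held at least 2 UMIs of *Dntt* (edgeR adjusted p = 0.0521) and without very deep members (edgeR adjusted p = 0.0558). Levels in *Tet2*-KO mice were 291, 95.6, 363 and 284 CPM with vehicle and 151, 159, 144 and 216 CPM with IL1β, which overlap. It was not called there, and the difference between the genotypes was not significant. *Cox6a2* also follows *Il7r* among the members, at 304 CPM in those with *Il7r* and 95.3 CPM in those without. Members with *Il7r* were on average fewer with IL1β.

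Genes of the interferon response split. Of 26 listed genes 9 were tested, 4 fell (against 8.22% of all tested genes) and *Irf1* rose (against 6.79% of all). *Psmb8*, a subunit of the immunoproteasome, was at 379 to 632 CPM with vehicle and 165 to 406 CPM with IL1β (log2 -0.87 ± 0.14, edgeR adjusted p = 0.000243), and *Ifi27l2a* was at 19.0 to 158 and 6.86 to 101 CPM (log2 -1.30 ± 0.28, edgeR adjusted p = 0.00274). *Irf1*, a transcription factor that NF-κB also induces, was at 19.0 to 64.7 and 34.3 to 191 CPM (log2 1.15 ± 0.26, edgeR adjusted p = 0.0038). The call for *Irf1* was lost without WT IL1β mouse 3 (edgeR adjusted p = 0.0691) and with at least 2 UMIs of *Dntt* per member (edgeR adjusted p = 0.0756), and its call in *Tet2*-KO mice alone in 15 of 19 alternatives.

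Of 15 genes of an inflammatory stress signature that the study chose on these samples, which is thus no independent evidence, 13 were tested and 8 rose over both genotypes (median log2 0.69, with 6.79% of all tested genes higher), but only *Ier5* passed in WT and *Dusp2* and *Jund* in *Tet2*-KO mice. Of 19 alternatives, 2 lost the call for *Ier5*, 1 that for *Dusp2* and 11 that for *Jund*. *Dusp2*, a phosphatase that ends MAP kinase signalling, was at 124 to 344 CPM with vehicle and 247 to 773 CPM with IL1β (log2 1.22 ± 0.22, edgeR adjusted p = 0.00055). Of 24 listed lymphoid priming and homing genes 16 were tested. *Ltb* and *Cd44* were among those that rose and *Gpr171* fell, leaving aside the rule gene *Il7r*. *Ltb*, the lymphotoxin subunit made by lymphoid cells, was at 28.2, 0, 42.4 and 32.3 CPM in WT vehicle and 20.6, 378, 167 and 220 CPM in WT IL1β mice, and at 40.5 to 91.7 against 130 to 738 CPM in *Tet2*-KO mice. WT IL1β mouse 1 again lay with the vehicle mice (log2 2.33 ± 0.38, edgeR adjusted p = 0.000203).

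To see whether these changes were larger in the members than in like cells, the effect of IL1β was compared with that in the *Flt3*+ *Cd34*+ *Dntt*- progenitors of the same 16 mice. It differed in 5 of 5212 genes (0.0959%), all with a more positive effect in the members: *Pmaip1*, *Lgals1* and the globin genes *Hbb-bs*, *Hba-a1* and *Hba-a2*. This difference alone does not tell a rise in the members from a fall in the other progenitors. Over both genotypes no globin gene was called higher with IL1β in the members. For *Pmaip1* the log2 difference was 4.30 in the members and 1.98 in the other progenitors, with a difference of 2.32 ± 0.49 between the classes (edgeR adjusted p = 0.0412). This call for *Pmaip1* did not survive the removal of WT vehicle mouse 1 or 4, WT IL1β mouse 3, *Tet2*-KO vehicle mouse 1 or 4, or *Tet2*-KO IL1β mouse 3 or 4, with the highest adjusted p without *Tet2*-KO vehicle mouse 1 (edgeR adjusted p = 0.519). *Tnfaip3* rose by log2 5.27 in the members and 4.70 in the other progenitors, and *Nfkbia* by 4.01 and 3.63, and neither difference was detectable (edgeR adjusted p = 0.920 and 0.812). Globin levels differed widely between mice of a group, with *Hbb-bs* at 2627 CPM in WT IL1β mouse 2 and 34.7 CPM in WT IL1β mouse 4. The call for *Hbb-bs* held in all 17 alternatives, whereas that for *Hba-a1* was lost in 2, that for *Lgals1* in 3 and that for *Hba-a2* in 8 of 17. Without WT IL1β mouse 3 this comparison called 2 genes, without *Tet2*-KO IL1β mouse 3 it called 1, without WT vehicle mouse 1 it called 2, and without *Tet2*-KO vehicle mouse 1 or mouse 4 it called 3.

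Genes of other lineages were present in the members of every group, and their part in these results was not tested. Of 18 listed erythroid and megakaryocyte genes 9 were tested and *Tfrc* alone rose, against 6.79% of all tested genes. The summed level of 18 erythroid and megakaryocyte genes was 308 to 5179 CPM in WT vehicle, 1961 to 8054 CPM in WT IL1β, 509 to 2866 CPM in *Tet2*-KO vehicle and 693 to 5645 CPM in *Tet2*-KO IL1β mice. The plasma cell gene *Jchain* was at 27.4, 56.7, 1003 and 5569 CPM in WT IL1β and 467, 4840, 63.8 and 50.7 CPM in *Tet2*-KO IL1β mice, against 0 to 183 CPM with vehicle, and was also found in granulocyte progenitors at up to 730 CPM. It was called in both genotypes, but not in WT without mouse 4 or in *Tet2*-KO without mouse 2 (edgeR adjusted p = 0.0726 and 0.681). The call was lost in 5 of 19 alternatives in WT and in 10 of 19 in *Tet2*-KO mice. Of 24 listed myeloid genes 15 were tested and only *Prtn3* rose, near the 6.79% of all tested genes, with a summed level of 2174 to 5094, 2168 to 9810, 2210 to 20887 and 2804 to 16171 CPM in the 4 groups as ordered above. When the 65 members with erythroid or basophil genes were left out, 242 genes were higher and 331 lower over both genotypes.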

How the data were processed

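The authors deposited, for each of 8 libraries, a matrix of raw UMI counts per gene and barcode, beside counts of the hashtag antibodies. The submitters' processing notes name Cell Ranger 3.1.0, Seurat 3.2.3 and the build mm10. Each library held 56010493 to 99197115 UMIs over all its barcodes. From these counts 94917 of 121405 barcodes with 750 or more detected genes and at most 10% mitochondrial UMIs were kept. Hashtags were called with HTODemux (Seurat 5.3.0, positive quantile 0.99), which gave 57896 single cells, 33083 without a call and 3938 doublets. The last were left out of values per mouse, and no other doublet caller was run.

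Members and gene lists were chosen with earlier results of these data known, and the stress signature list was chosen by the study on these samples. Shares were compared on the log2 scale, with 0.5 cells added, by two-sided exact permutation tests over mice. UMIs of the members were summed per mouse (10 or more members) and tested with edgeR 4.0.16 (quasi-likelihood test, TMM scaling, Benjamini-Hochberg adjustment, R 4.3.3) in 1 fit over the 4 groups. The effect of IL1β in both genotypes is the mean of its effects in that fit. The comparison with *Flt3*+ *Cd34*+ *Dntt*- progenitors added the mouse as a term. The test was checked on simulated data with 200 changed genes among 3565, of which it found 79.5% in the WT comparison of IL1β with vehicle (63.1% of those changed by 1 and 96.9% of those changed by 2 on the log2 scale). For *Tet2*-KO against WT with IL1β it found 62.5% (36.8% and 91.5%). False calls numbered 9 and 6, in the same order. The simulated mice were independent and each gene had the spread of the trend. No shared library and no change in the mix of members were simulated, so this setting is simpler than the data. The median standard error of a log2 difference was 0.27 in WT and 0.30 in *Tet2*-KO mice.

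Genes were named by a rule: per comparison up to 10 in each direction with the largest change among called genes whose groups did not overlap, up to 4 called genes of each list, and 13 genes whatever their result. Xist, Tsix, genes of the Y chromosome, mitochondrial genes and predicted gene models were left out. CPM of tested genes carry the TMM factors, and those of untested genes and summed lists are plain. Levels are not divided by gene length, as the counts come from 3′ ends. Near-identical copies, such as the globin genes *Hba-a1* and *Hba-a2*, share reads and are uncertain. Alternatives were DESeq2 1.42.0, its size factors, no filter on low counts, other limits on members, libraries as replicates, a replicate block and leaving out each mouse, and those that were chosen after seeing the data are named as added. Gene coordinates are from GENCODE and promoters from RefSeq, both for GRCm38. Tables and exact tests were made in Python 3.11.15 (pandas 2.3.3, scipy 1.17.1) and plots with matplotlib 3.10.9.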

Additional observations from a re-analysis of the deposited data

Results flagged for a closer look

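Within groups of 4 mice, single mice stood far from the other 3 in 35 of 228 groups examined (15.4%). The rate by chance is not known here, as some sums hold few members and several values stand at 0. Values of genes are CPM of the summed members and were compared on a log scale. *Tet2*-KO vehicle mouse 2, with 15 members, was far from its group in the share of members over the limit on cell cycle genes (66.7%), in *Xrcc6* (27.3), *Hbb-bs* (13.7) and *Hba-a1* (13.7), and stood at 0 for *Serpina3g*, *Rag1*, *Ly6d* and *Hba-a2*. WT vehicle mouse 2, with 16 members, stood at 0 for *Tfe3*, *Muc13* and *Ltb* and was far from its group in *Ikzf2* (19.0), *Zeb2* (189.5), *Hoxa9* (227) and *Bcl2* (246). The low numbers of members in these mice stand beside these values, and their part in them was not tested.

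WT IL1β mouse 1 was low in *Tnfaip3* (41.2). *Tet2*-KO vehicle mouse 1 was high in *Nfkbiz* (113), *Ubb* (480.1), *Cxcl2* (2.70) and *Myl10* (448). *Tet2*-KO IL1β mouse 3 had the lowest share of members over that limit (41.2%), low *Dntt* (845) and *Satb1* (303), and high *Pmaip1* (223) and *Hba-a2* (175). *Tet2*-KO IL1β mouse 2 had the one share of members with *Rag1* or *Rag2* above 0 in its group (11.4%), with *Rag1* at 35.4, and was low in *Ier5* (159) and *Cxcl2* (53.1). *Tet2*-KO IL1β mouse 1 had *Bcl2* at 316 and *Xrcc6* at 0. WT vehicle mouse 1 was low in *Tet2* (39.5) and *Rrm1* (186), WT IL1β mouse 3 was high in *Flt3* (511) and WT IL1β mouse 2 was low in *Ly6d* (37.8).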

How the results depend on the processing

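The direction of the difference in share between IL1β and vehicle held under every alternative run. With the 8 libraries as replicates the log2 differences were -2.09 in WT (exact p = 0.333), -1.87 in *Tet2*-KO (exact p = 0.333) and -1.98 over both genotypes (exact p = 0.0556), the smallest p that this design allows. Leaving out 1 mouse gave -2.44 to -1.91 in WT and -2.19 to -1.73 in *Tet2*-KO mice, where the smallest possible exact p is 0.0571, and -2.19 to -1.91 over both (exact p = 0.000816). Same-numbered mice did not deviate together (correlation of their deviations -0.243 to 0.238, median 0.0149, over 24 pairs), so the numbers do not pair the samples. With a replicate block the log2 differences were -2.18 and -1.91 (exact p = 0.125 for each, the smallest possible), and the block called 143 genes in WT, 137 in *Tet2*-KO and 456 over both.

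Counts of called genes moved more, and the cause was not tested. Without a filter on low counts there were 273 genes in WT, 48 between the genotypes with vehicle, 30 between them with IL1β and 8 in the interaction. Only mice with 20 or more members gave 33 genes in *Tet2*-KO, 1 between the genotypes with vehicle and 0 with IL1β. The 8 libraries gave 99 in WT and 4 between the genotypes with IL1β. Members with at least 2 UMIs of *Dntt* gave 108 in WT, 31 in *Tet2*-KO, 276 over both and 0 between the genotypes with IL1β. Members without an *Il7r* UMI gave 53 in *Tet2*-KO, 334 over both and 0 between the genotypes with IL1β, which was also 0 without very deep members and without members with erythroid or basophil genes, and 10 by DESeq2. Leaving out 1 mouse gave 59 to 171 genes in WT, 50 to 200 in *Tet2*-KO, 316 to 617 over both, 1 to 6 in the comparison with *Flt3*+ *Cd34*+ *Dntt*- progenitors, 0 to 1 between the genotypes with IL1β, and 0 in the interaction and between the genotypes with vehicle. Among called genes over both genotypes 45.2% were higher, and 28.3% without the filter. In WT 42.1% were higher, and 63.6% with the 8 libraries. In *Tet2*-KO mice 58.4% were higher, 42.4% without the filter, 72.7% with the 8 libraries, 71.7% in members without an *Il7r* UMI and 83.9% with at least 2 UMIs of *Dntt*. Of the values for single genes 2522 kept their direction and call, 454 lost the call and 0 turned direction. IL1β mice held few members, and genes below the filter were not tested. The part of the number of members in the calls was not tested.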

Other observations

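The following gene families were chosen after their values were seen and were not tested as groups, and 8.22% of all tested genes were lower with IL1β in *Dntt*+ lymphoid progenitors. Over both genotypes 42 of 76 ribosomal protein genes were lower and 2 higher (median log2 -0.29), as were 8 of 35 proteasome genes (median -0.33), 17 of 78 genes of oxidative phosphorylation (median -0.21) and 6 of 10 histone genes (median -0.95). In WT mice 40 ribosomal protein genes were lower and in *Tet2*-KO mice 10. None of these genes differed in its response from the *Flt3*+ *Cd34*+ *Dntt*- progenitors. Among single genes outside the lists, *Pde4b*, a phosphodiesterase that degrades cyclic AMP, was higher (log2 2.35 ± 0.24, edgeR adjusted p = 7.24e-07), as were *Serpina3g* (log2 2.70), *Tfe3* (log2 2.56) and *Muc13* (log2 1.78). *Ubb*, a ubiquitin gene, was lower (log2 -1.16 ± 0.14, edgeR adjusted p = 5.64e-06).

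Some genes were too low for the test. *Il1r1*, the receptor of IL1β, averaged 30.4 CPM in the members, 17.8 CPM in *Flt3*+ *Cd34*+ *Dntt*- progenitors and 3.18 CPM in all other cells, with a UMI in 144 members (10.6%). Per mouse it was at 0 to 34.0 CPM in WT vehicle, 0 to 43.6 in WT IL1β, 11.8 to 30.1 in *Tet2*-KO vehicle and 25.9 to 55.0 in *Tet2*-KO IL1β members. *Ccr9*, a chemokine receptor for entry to the thymus, had 40 UMIs in WT vehicle and 16 in *Tet2*-KO vehicle members, against 0 and 1 with IL1β. *Cd79a* had 88 and 53 UMIs with vehicle and 12 and 24 with IL1β, and *Rag2* had 60 and 37 against 12 and 7. Scaled to depth the treatments overlapped for *Cd79a*, at 11.8 to 211 and 0 to 54.5 CPM in WT and 21.8 to 71.0 and 0 to 109 CPM in *Tet2*-KO mice. The highest *Tet2*-KO mouse for *Cd79a* was thus an IL1β mouse. These sums are over 2028000 UMIs in WT vehicle, 546788 in WT IL1β, 1472355 in *Tet2*-KO vehicle and 434605 in *Tet2*-KO IL1β members. The raw sums of vehicle and IL1β are therefore not comparable as they stand, and no difference is read from those of *Rag2*.

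Other lists showed few calls over both genotypes, where 6.79% of all tested genes were higher and 8.22% lower. None of the tested genes was called for T and NK cells (2 tested), basophils (2), the Gimap family (3) or Notch targets (3). Of the cytokine receptors 7 were tested, with *Kit* higher, leaving aside the rule gene *Il7r*. Of 10 heat shock genes 1 was lower, of 31 S phase genes 1 was lower and of 41 G2 and M phase genes 1 was higher. These calls, for *Dnaja1*, *Cdca7* and *Ckap2*, were lost in 7 of 27, 8 of 27 and 15 of 25 alternatives. Of 7 genes of DNA methylation only *Tet2* was higher (log2 0.74 ± 0.24, edgeR adjusted p = 0.0381), a call that was lost in 15 of 26 alternatives. Of 9 tested genes of MHC class I *Tapbp* was higher, and the 1 tested gene of class II, *H2-DMa*, was lower.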
